A study of Homo sapiens with 6 samples.

Results

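The 10 genes described here encode heat shock transcription factors (HSF1, HSF2, HSF4), the HSF1 regulator HSBP1, small heat shock proteins (HSPB1, HSPB8, CRYAB) and co-chaperones of the BAG family (BAG1, BAG2, BAG3). They were chosen by name, as the rows of the estimated gene count table whose symbol was one of these 10, out of 30270 genes in all. Total RNA depleted of ribosomal RNA was sequenced from HEK 293T cells, an immortalised human embryonic kidney line that carries the SV40 large T antigen. The labels gave 3 libraries of wild-type (WT) cells and 3 of a TENT3A/B double knockout, called ΔTUT4/7 by the study, all of them without treatment. TUT4 and TUT7 (also TENT3A and TENT3B) are terminal uridylyltransferases that add uridines to the 3′ ends of RNA, and the study asked what their loss does to RNA levels. The WT cells came from a repository and the ΔTUT4/7 cells from another laboratory that had made them earlier, and the 3 biological replicates of each group are of 1 line, so the deletion and the history of the lines cannot be told apart.

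In the heat shock response, HSF1 assembles into trimers under protein stress and binds heat shock elements, arrays of inverted GAA units in the promoters of chaperone genes. Small heat shock proteins hold unfolding proteins in a soluble state without using ATP, and BAG proteins bind the ATPase domain of HSP70 and promote the release of its bound nucleotide and client. BAG3 together with HSPB8 routes misfolded proteins to selective autophagy, BAG1 links HSP70 to the proteasome, BAG2 inhibits the ubiquitin ligase CHIP, and HSBP1 binds the trimerisation domain of HSF1 and lowers its activity.

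The promoters of 5 members are shown because HSPB1, BAG1, BAG2 and BAG3 were higher in the libraries labelled ΔTUT4/7 and HSPB8, whose promoter also holds a paired element, was not. Each sequence covers the 250 bases before a RefSeq transcription start site, read 5′ to 3′ on the gene's strand from GRCh38.p14, and capitals mark GAANNTTC, the 2-unit element. The windows lie at chr7:76302423-76302672 on the plus strand for HSPB1, chr6:57172076-57172325 on the plus strand for BAG2 and chr12:119178681-119178930 on the plus strand for HSPB8. BAG1 is read from chr9:33264709-33264958 on the minus strand, and BAG3 from chr10:119651130-119651379 on the plus strand.
HSPB1: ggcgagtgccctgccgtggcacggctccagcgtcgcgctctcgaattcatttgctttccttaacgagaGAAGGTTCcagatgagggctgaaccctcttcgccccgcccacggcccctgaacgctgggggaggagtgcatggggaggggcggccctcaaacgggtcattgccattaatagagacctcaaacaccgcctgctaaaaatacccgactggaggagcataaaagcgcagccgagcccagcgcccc
BAG2: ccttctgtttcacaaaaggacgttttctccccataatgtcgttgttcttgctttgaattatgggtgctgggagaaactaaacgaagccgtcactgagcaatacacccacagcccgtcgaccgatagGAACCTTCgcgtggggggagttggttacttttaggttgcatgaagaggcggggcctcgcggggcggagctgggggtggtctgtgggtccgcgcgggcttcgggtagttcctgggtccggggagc
HSPB8: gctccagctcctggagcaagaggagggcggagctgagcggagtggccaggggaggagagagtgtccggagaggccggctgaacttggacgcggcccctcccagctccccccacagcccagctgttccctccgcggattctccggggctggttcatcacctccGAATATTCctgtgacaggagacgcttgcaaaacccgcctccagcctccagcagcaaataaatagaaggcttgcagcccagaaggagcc
BAG1: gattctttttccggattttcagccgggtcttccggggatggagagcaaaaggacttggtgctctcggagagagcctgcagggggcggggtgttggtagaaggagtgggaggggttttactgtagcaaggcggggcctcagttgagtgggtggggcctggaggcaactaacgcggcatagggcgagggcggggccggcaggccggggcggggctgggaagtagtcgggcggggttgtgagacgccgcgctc
BAG3: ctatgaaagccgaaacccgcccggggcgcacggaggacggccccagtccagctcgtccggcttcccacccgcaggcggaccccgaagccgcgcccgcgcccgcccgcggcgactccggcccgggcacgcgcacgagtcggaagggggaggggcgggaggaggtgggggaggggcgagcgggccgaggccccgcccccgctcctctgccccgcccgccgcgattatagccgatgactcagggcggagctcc

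Promoter windows, from 250 bases before to 50 after a start site, were given for 8 of the 10 genes, in 10 windows, the exceptions being HSF1 and CRYAB. The windows were searched on both strands for the 2-unit elements GAANNTTC and TTCNNGAA and for elements of 3 units, in which a further unit follows after 2 bases, so that each 3-unit match also holds a 2-unit match. No member window held 3 exact units, which 0.49% of all 35116 RefSeq windows did. A 2-unit match was found for 3 of the 8 genes, against 13.5% of all windows. The first is a count of genes and the second a share of windows, and a gene with more windows had more room for a match. HSPB1 had GAAGGTTC with its first base at position -182 relative to the start site, BAG2 had GAACCTTC at -124, and HSPB8 had GAATATTC at -88 and a further match past the start site. With 1 of the 9 defining bases allowed to differ, only the HSPB1 window among these 8 genes held 3 units, and 6.24% of all windows did. Of 24 other genes known to respond to HSF1, 22 had windows, 36 windows in all. Counted by gene, 8 of these held the exact 3-unit form, 14 the 2-unit form and 17 the 3-unit form with 1 base allowed to differ. A match is a run of letters and was not tested as a site of binding.

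TUT4 and TUT7 were examined first as a check of the labels. TUT4 stood at 212, 216 and 206 CPM (counts per 1e6 counts of the TMM-scaled library size, a scaling between libraries) in WT replicates 1 to 3 and at 882, 920 and 917 CPM in the libraries labelled ΔTUT4/7, a log2 fold change of 2.10 ± 0.04 (SE). TUT7 stood at 60.4, 62.6 and 64.8 CPM and at 27.2, 25.2 and 26.5 CPM, a log2 fold change of -1.25 ± 0.06. The TUT4 value goes against the label of a knockout, and a count over the whole gene does not read the edited site itself, so every direction below rests on the libraries as labelled. Library totals ran from 18757228 to 33148937 estimated counts, and pairs of libraries differed beyond sampling noise within each group (chi-square per degree of freedom 2.44 to 10.3) and by more between the groups (71.7 to 118). All 9 markers of the HEK lineage had counts, 5 of them higher and 4 lower, with a summed level of 625 to 657 CPM in WT and 1442 to 1459 CPM in the libraries labelled ΔTUT4/7, a rise that lay mostly in VIM (496 and 1250 CPM). Of 7 fibroblast markers, 4 had a row and their sum was 20.9 to 23.9 CPM against 8.16 to 9.57 CPM, most of it COL1A1. The 4 leukocyte markers with a row, of 7, summed to between 1.71 and 3.51 CPM in WT and between 1.98 and 2.93 CPM in the other group. The part of these markers in the results below was not tested.

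Of the 10 genes, 9 passed the count filter. By edgeR's quasi-likelihood test, with p-values adjusted over all 23952 tested genes and a threshold of 0.05, 5 of the 9 were higher in the libraries labelled ΔTUT4/7 (HSF1, HSPB1, BAG1, BAG2, BAG3), where 28.6% of all tested genes were higher. HSF4 was the 1 of 9 called lower, where 29.0% of all tested genes were lower. At a change of 2-fold or more, 2 of the 9 were higher (HSPB1 and BAG1, against 5.90% of all tested genes) and 0 of the 9 were lower (12.4% of all). For the same 5 genes every library labelled ΔTUT4/7 lay above every WT library, which held for 31.0% of all tested genes. The median log2 fold change of the 9 was 0.56, beside -0.02 over all tested genes. With 9 genes, these shares describe the members and are no test of them as a group. In RNA from a whole culture, fewer cells making a transcript and less of it per cell cannot be told apart.

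**Figure D1:**
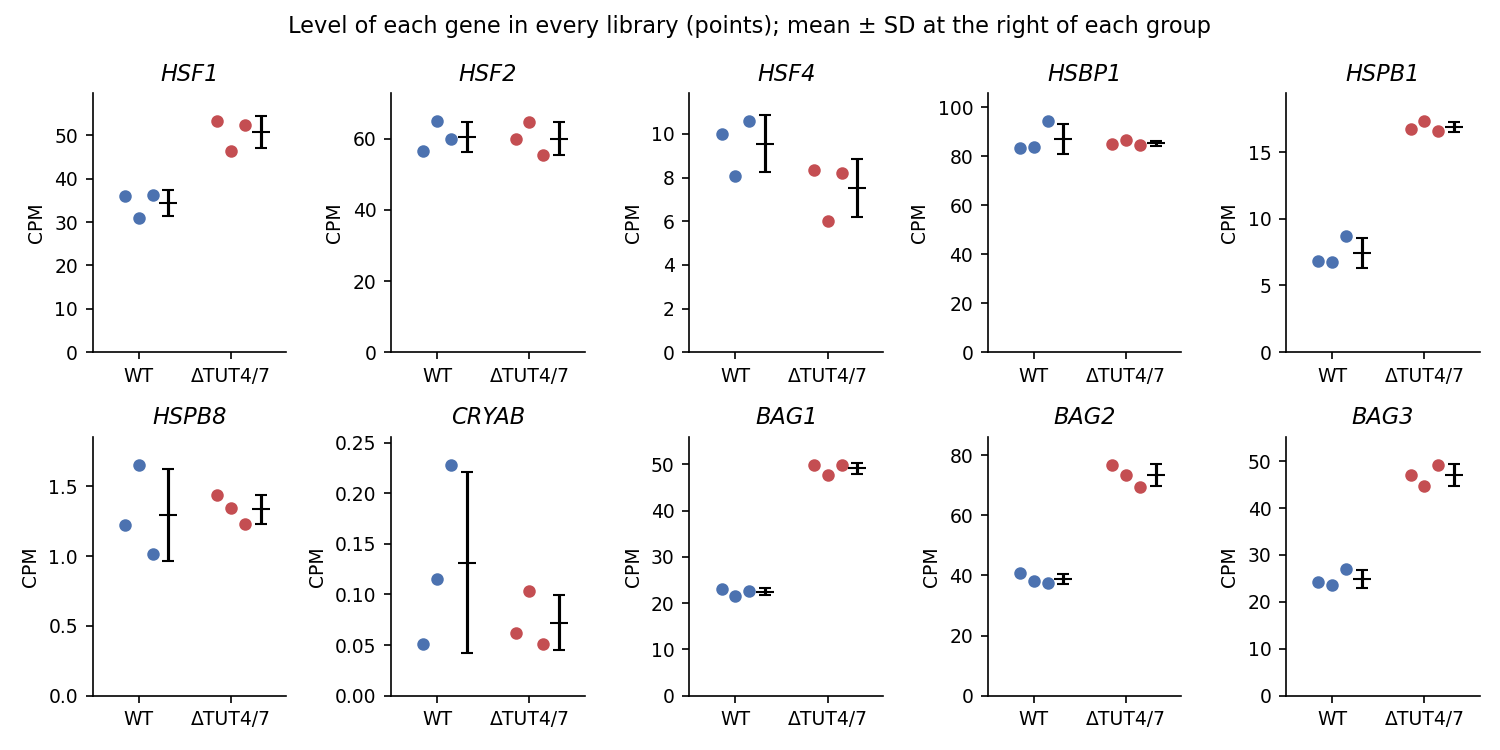
Level of each of the 10 genes in CPM (vertical axes from 0, each with its own range) in the 3 WT libraries (blue) and the 3 libraries labelled ΔTUT4/7 (red), with the mean ± SD of each group as a black mark. The points of the groups are apart for HSF1, HSPB1, BAG1, BAG2 and BAG3 and overlap for HSF2, HSF4, HSBP1, HSPB8 and CRYAB.

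HSF1, the main activator of the heat shock response, lies on the plus strand of chromosome 8 at 144291591 to 144314720 (hg38, as are all gene positions here). It stood at 36.0, 31.0 and 36.3 CPM in WT and at 53.3, 46.5 and 52.4 CPM in the libraries labelled ΔTUT4/7. The lowest of the latter lay above the highest WT library, and the means were 34.4 ± 2.99 and 50.7 ± 3.69 CPM (SD, n = 3). This was a log2 fold change of 0.56 ± 0.07 (SE, 95% interval 0.41 to 0.71, adjusted p = 8.09e-07, edgeR). The 78 other tested genes within 5 Mb of HSF1 that had a mean count of 50 or more had a median log2 fold change of 0.25. The same count limit holds for the neighbours of every member below. With an offset for GC content and length (63.9% GC in the canonical HSF1 transcript) the HSF1 value was 0.33 (adjusted p = 3.34e-05, edgeR), the sign and call being kept. The part of the surroundings in the HSF1 value was not tested.

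HSF2, a factor that forms mixed trimers with HSF1 and is best known from development, lies on the plus strand of chromosome 6 at 122399551 to 122433119. Its level was 56.7, 65.0 and 60.0 CPM in WT and 60.1, 64.6 and 55.3 CPM in the libraries labelled ΔTUT4/7. The groups overlapped almost fully. HSF2 had a log2 fold change of -0.01 ± 0.06, and its 95% interval of -0.15 to 0.12 lay below that of HSF1. The 35 tested genes within 5 Mb had a median log2 fold change of -0.28.

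HSF4, a factor known for lens development and for lacking the repeat that restrains trimer formation, lies on the plus strand of chromosome 16 at 67164681 to 67169945. It stood at 9.98, 8.08 and 10.6 CPM in WT and 8.35, 5.99 and 8.23 CPM in the libraries labelled ΔTUT4/7. The groups overlapped, since WT replicate 2 lay below replicates 1 and 3 of the other group. The log2 fold change of -0.33 ± 0.14 (95% interval -0.62 to -0.05) had an adjusted p of 0.0444 in edgeR. The size was about the same in DESeq2 (-0.34), in limma-voom (-0.33) and without the count filter (-0.33), but the call was lost there (adjusted p of 0.0862, 0.0704 and 0.0528). It was also lost when WT replicate 1 (0.104), WT replicate 3 (0.187) or replicate 2 of the libraries labelled ΔTUT4/7 (0.225) was left out. With the GC and length offset the log2 fold change was -0.58 (adjusted p = 0.000276, edgeR), and over all refitted alternatives the adjusted p ran from that value to 0.225.

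HSBP1, the negative regulator of HSF1, lies on the plus strand of chromosome 16 at 83807978 to 83819737. It stood at 83.2, 83.8 and 94.3 CPM in WT and at 85.0, 86.5 and 84.7 CPM in the libraries labelled ΔTUT4/7. WT replicate 3 was the highest of the 6, and the other 5 libraries lay close together. The log2 fold change was -0.03 ± 0.05 (95% interval -0.14 to 0.08, adjusted p = 0.653, edgeR), and the 55 tested genes within 5 Mb had a median of -0.31. HSBP1 was called lower under scaling by library size alone (-0.15, adjusted p = 0.0240, edgeR) and under upper quartile scaling (-0.13, adjusted p = 0.0433, edgeR). It was also called lower by limma on log2(CPM + 1), without TMM (-0.14, adjusted p = 0.0314, limma). In the same order, the median of all tested genes moved from -0.02 to -0.13, -0.12 and -0.09. Under library size alone this shift was of about the size of the HSBP1 change itself.

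The 4 genes were therefore compared as ratios of counts within a library, which no library scaling can move. The 8 ratios given here and for the BAG genes were chosen after the values had been seen. For HSF1 to HSF2 the ratio was 0.635, 0.477 and 0.605 in WT and 0.887, 0.719 and 0.947 in the libraries labelled ΔTUT4/7, means of 0.572 ± 0.084 and 0.851 ± 0.118. For HSF1 to its regulator HSBP1 it was 0.432, 0.369 and 0.385 against 0.627, 0.537 and 0.619. For HSF4 to HSF1 it was 0.277, 0.261 and 0.292 against 0.157, 0.129 and 0.157. The 3 ratios had no overlap between the groups: more HSF1 RNA was present per HSF2, HSBP1 or HSF4 RNA in the libraries labelled ΔTUT4/7. The two-sided exact permutation p was 0.1 for each of the 8 ratios, raw and adjusted over the 8, which is the smallest that 3 against 3 libraries allow.

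HSPB1 (HSP27), the stress-inducible small heat shock protein that also binds actin and intermediate filaments, lies on the plus strand of chromosome 7 at 76302673 to 76304295. Its level was 6.81, 6.79 and 8.73 CPM in WT and 16.7, 17.3 and 16.6 CPM in the libraries labelled ΔTUT4/7. The groups were far apart, and WT replicate 3 was the highest of its group. Means of 7.44 ± 1.11 and 16.9 ± 0.379 CPM (SD, n = 3) gave a log2 fold change of 1.17 ± 0.11, the largest of the 9 tested members though its interval overlapped that of BAG1, or 2.25-fold (95% interval 1.92 to 2.63, adjusted p = 7.96e-09, edgeR). The 65 tested neighbours within 5 Mb had a median log2 fold change of -0.0004. The HSPB1 canonical transcript has 65.3% GC, and with the GC and length offset the log2 fold change was 0.87, still called but below 2-fold.

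The reads of HSPB1 can be shared with its processed pseudogenes. HSPB1P1 held 1.30, 1.29 and 2.28 estimated counts in WT and 18.8, 5.03 and 1.76 in the libraries labelled ΔTUT4/7. It passed the count filter through replicate 1 of the latter alone, so its test is not given. HSPB1P2 held 2.05 counts in all WT libraries together and 8.20 in the others, where HSPB1 itself held 578 and 1197, so the pseudogene rows were small beside it. For HSBP1, the untested HSBP1P1 held 2.00 and 10.0 counts, and HSBP1P2 held 49.3 and 33.0 (log2 fold change -0.48, adjusted p = 0.420, edgeR).

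HSPB8 (HSP22), the partner of BAG3, lies on the plus strand of chromosome 12 at 119171555 to 119224855. It was low, at 1.22, 1.65 and 1.01 CPM in WT and 1.44, 1.34 and 1.23 CPM in the libraries labelled ΔTUT4/7. WT replicates 2 and 3 held the highest and lowest level of all 6 libraries. Its log2 fold change, 0.06 ± 0.26, was not called (adjusted p = 0.874, edgeR), and the 95% interval of -0.50 to 0.61 leaves room for a change of about the size seen in HSF1. In total 98 counts were assigned to HSPB8 in WT and 96 in the libraries labelled ΔTUT4/7. The 104 tested genes within 5 Mb had a median log2 fold change of 0.79, the highest of any member's surroundings and above the upper end of the HSPB8 interval.

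CRYAB (αB-crystallin), a small heat shock protein abundant in lens and muscle, lies on the minus strand of chromosome 11 at 111908564 to 111923722. Its counts were 1, 3 and 7 in WT and 2, 2 and 1 in the libraries labelled ΔTUT4/7, 11 and 5 in all. No library exceeded the limit of 12 counts, so CRYAB was not tested, and without that filter its log2 fold change was -0.93 with an adjusted p of 0.441 in edgeR. A difference was not detectable at this depth.

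BAG1, which carries a ubiquitin-like domain and brings HSP70 clients to the proteasome, lies on the minus strand of chromosome 9 at 33247820 to 33264720. It stood at 23.1, 21.6 and 22.7 CPM in WT and at 49.8, 47.8 and 49.9 CPM in the libraries labelled ΔTUT4/7. Replicates were tight in both groups, with coefficients of variation of 3.52% and 2.41%. The log2 fold change was 1.13 ± 0.06, or 2.19-fold (95% interval 2.00 to 2.40, adjusted p = 2.17e-12, edgeR), the smallest adjusted p of the members.

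BAG2, the inhibitor of the CHIP ligase, lies on the plus strand of chromosome 6 at 57172326 to 57189833. Its level was 40.6, 38.0 and 37.6 CPM in WT and 76.8, 73.4 and 69.5 CPM in the libraries labelled ΔTUT4/7. The lowest of the latter was well above the highest WT library. The log2 fold change was 0.92 ± 0.06, or 1.90-fold (95% interval 1.74 to 2.07, adjusted p = 1.46e-11, edgeR). RAB23, a small GTPase gene on the opposite strand that overlaps BAG2 by 2842 bases, moved the other way, at 32.2 and 25.8 CPM (log2 fold change -0.32, adjusted p = 0.000644, edgeR).

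BAG3, the stress-induced member that binds small heat shock proteins and HSP70 at once, lies on the plus strand of chromosome 10 at 119651380 to 119677819. It stood at 24.1, 23.6 and 27.0 CPM in WT and at 47.1, 44.7 and 49.2 CPM in the libraries labelled ΔTUT4/7. The groups were again apart. The log2 fold change was 0.91 ± 0.07, or 1.88-fold (95% interval 1.70 to 2.08, adjusted p = 2.71e-10, edgeR). The 50 tested genes around BAG3 had a median log2 fold change of 0.30, against 0.08 for the 80 around BAG1 and 0.05 for the 28 around BAG2.

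**Figure D2:**
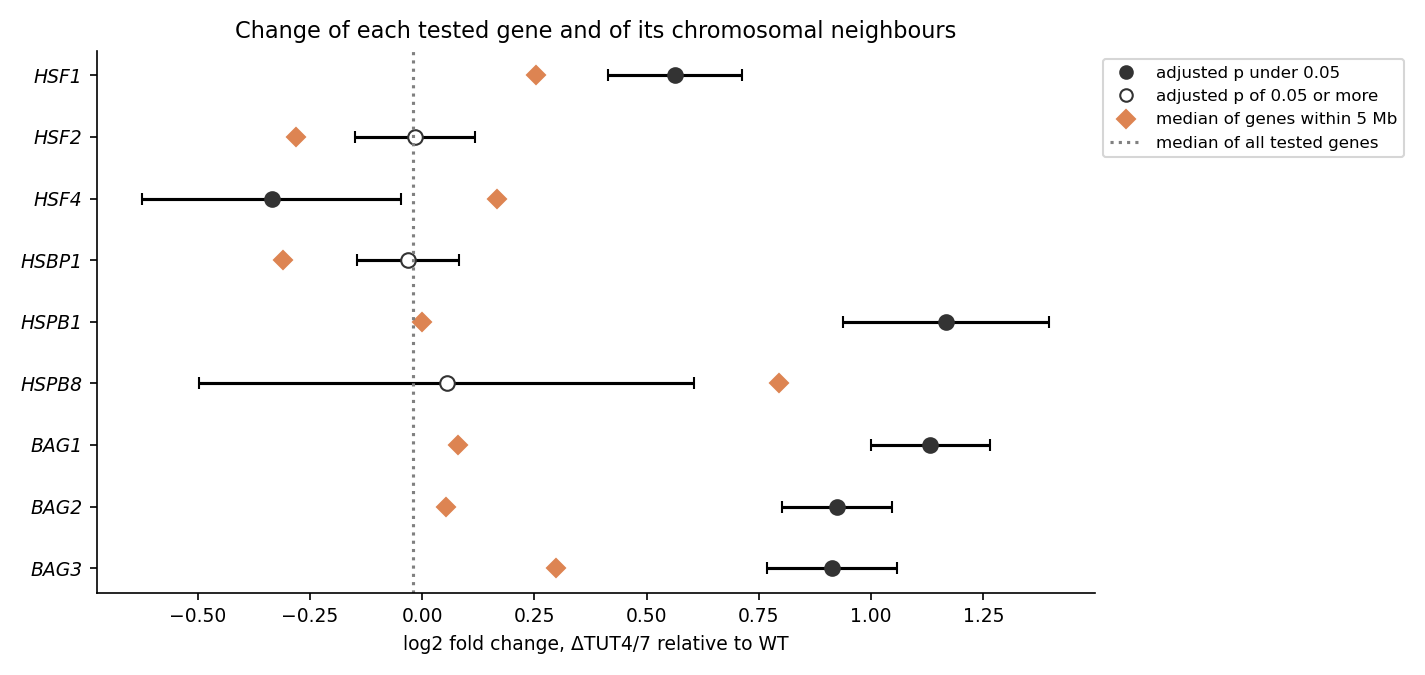
Log2 fold change of the 9 tested genes (circles, horizontal axis, libraries labelled ΔTUT4/7 relative to WT) with 95% intervals as bars, filled where the adjusted p was under 0.05. Diamonds give the median over the tested genes within 5 Mb that had a mean count of 50 or more. The dotted line is the median over all tested genes (-0.02). The HSPB8 diamond at 0.79 lies to the right of the HSPB8 interval, while those of HSPB1, BAG1, BAG2, BAG3 and HSF1 lie to the left of their genes' intervals.

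Other BAG genes were compared with these 3. BAG4, which silences death receptor signalling, stood at 97.3 ± 1.18 and 119 ± 5.07 CPM (SD, n = 3), a log2 fold change of 0.29 ± 0.05. BAG5, which carries several BAG domains, had a value of 0.37 ± 0.05, and BAG6, a chaperone of tail-anchored and mislocalised proteins, one of 0.28 ± 0.05. These 3 genes were called higher as well, by edgeR, with smaller changes, where 28.6% of all tested genes were called higher. The ratio of the summed counts of BAG1, BAG2 and BAG3 to those of BAG4, BAG5 and BAG6 was 0.265, 0.260 and 0.259 in WT and 0.423, 0.413 and 0.415 in the libraries labelled ΔTUT4/7, a log2 difference of 0.67 ± 0.02 (SE) with no overlap of the groups.

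The BAG genes were then set against the HSP70 genes whose products they bind. HSPA1A and HSPA1B, the stress-induced HSP70 genes, are near-identical and their reads are split by the counting model, so they were summed with the constitutive HSPA8. BAG1, BAG2 and BAG3 together amounted to 7.87%, 6.001% and 6.20% of the HSP70 counts in WT and to 4.28%, 4.18% and 4.12% in the libraries labelled ΔTUT4/7. The share was thus lower in the latter although the numerator was higher, and WT replicate 1 stood above the other WT libraries. HSPA8 alone rose by a log2 fold change of 1.39 ± 0.12 (adjusted p = 0.000286, edgeR) and HSPA1B by 2.22 ± 0.05 (adjusted p = 2.52e-17, edgeR). The counting model gave nearly all reads of the near-identical genes to HSPA1B, at 302 and 1407 CPM. HSPA1A was left at 1.75 and 4.64 CPM (log2 fold change 1.43 ± 0.22), so the HSPA1B value may hold reads of both. Within the BAG3 and HSPB8 pair, the ratio of BAG3 to HSPB8 counts was 19.7, 14.3 and 26.7 in WT and 32.9, 33.4 and 40.2 in the libraries labelled ΔTUT4/7. The ratio of HSPB1 to HSPB8 was 5.57, 4.11 and 8.64 against 11.7, 12.9 and 13.5, and that of BAG1 to BAG3 was 0.958, 0.915 and 0.838 against 1.06, 1.07 and 1.01.

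**Figure D3:**
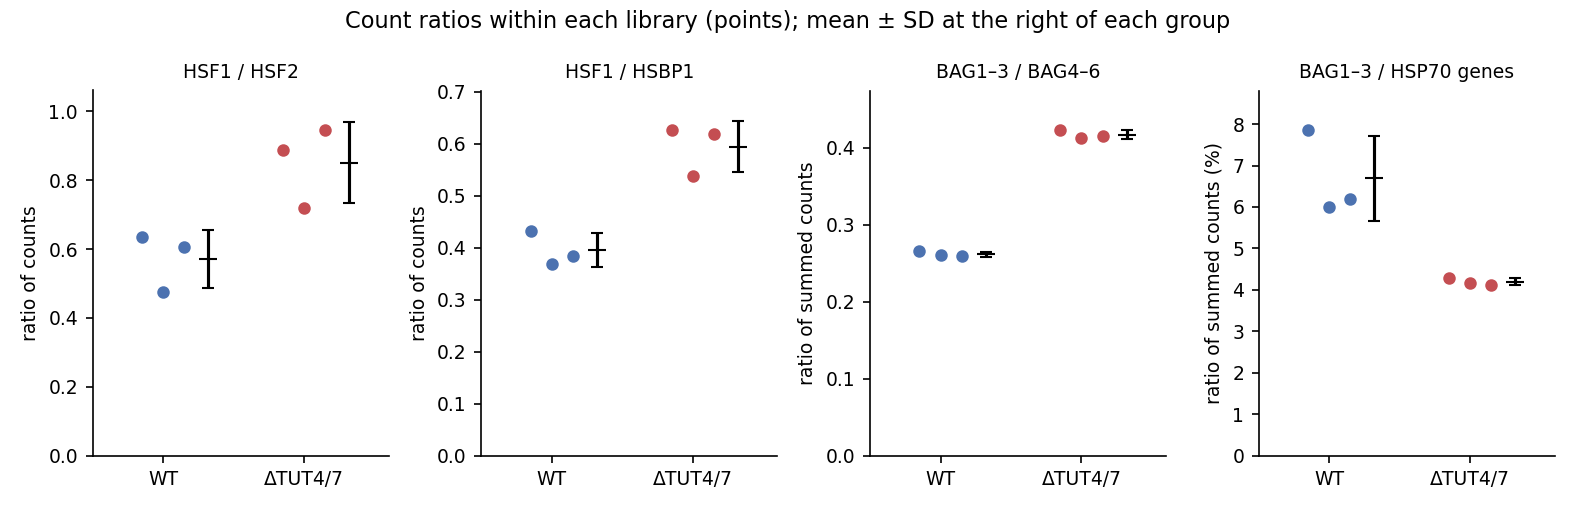
Ratios of counts within each library (vertical axes from 0; the last panel in percent) for WT (blue) and the libraries labelled ΔTUT4/7 (red), with the mean ± SD of each group in black. HSP70 genes are HSPA8, HSPA1A and HSPA1B; the HSF1 and BAG1–3 to BAG4–6 ratios are higher and the BAG to HSP70 share lower in the libraries labelled ΔTUT4/7, and the points of the groups are apart in each panel.

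Other genes of the HSF and small heat shock protein families with a row were examined as well. HSFX2, an X-linked heat shock factor gene with a near-identical copy, stood at 1.34 and 0.707 CPM (log2 fold change -0.86 ± 0.33, adjusted p = 0.0299, edgeR), and HSBP1L1, a relative of HSBP1, at 6.47 and 4.46 CPM (-0.53 ± 0.14, adjusted p = 0.00206, edgeR). Among small heat shock proteins, HSPB6, known from muscle, was at 0.364 and 0.881 CPM and passed the count filter only through the libraries labelled ΔTUT4/7, so its test is not given. HSPB11, also an intraflagellar transport protein, stood at 32.9 and 39.5 CPM (0.26 ± 0.08, adjusted p = 0.00709, edgeR). HSPB9 was below the count filter. HSF5, HSFX1 and 5 further small heat shock protein genes on the lists were not analysed here.

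Of 24 chaperone and other genes known to respond to HSF1, 19 were higher, 2 were lower and 3 were not called. Over all tested genes, 28.6% were higher and 29.0% lower. The median log2 fold change of the 24 was 1.05, beside -0.02 over all tested genes. The 3 with the smallest p were HSPH1, an HSP110 exchange factor of HSP70 (2.01 ± 0.05), HSPA1B, and HSP90AB1, the constitutive cytosolic HSP90 (1.35 ± 0.04). HSPA4L, an HSP110 relative, was lower (-0.35 ± 0.05). DNAJB1, the HSP40 co-chaperone of HSP70 that is strongly heat-inducible, stood at 101 ± 3.36 and 98.5 ± 4.91 CPM with an adjusted p of 0.525 in edgeR.

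Of 12 regulators and partners of HSF1, 6 were higher, 3 were lower and 3 were not called (median 0.12). Over all tested genes, 28.6% were higher and 29.0% lower. SSBP1, a mitochondrial DNA-binding protein that joins HSF1 in the nucleus (1.00 ± 0.05), SIRT1, the deacetylase that prolongs HSF1 binding to DNA (1.00 ± 0.05), and DAXX (0.54 ± 0.06) were higher. NEDD4 (-1.11 ± 0.06) and FBXW7 (-0.72 ± 0.05), ubiquitin ligase components reported to act on HSF1, and the acetyltransferase EP300 (-0.13 ± 0.04) were lower. Of 13 partners of BAG3 and BAG1 in selective autophagy and degradation, 8 were higher and 5 lower (median 0.44), beside the same 28.6% and 29.0%. The autophagy receptor SQSTM1 (1.11 ± 0.05), YWHAG, a 14-3-3 protein (0.68 ± 0.04), and FLNA, the filamin that BAG3 helps to clear (1.23 ± 0.06), were higher. HDAC6, the deacetylase of the aggresome pathway (-0.96 ± 0.06), LATS1, a kinase of the Hippo pathway (-0.74 ± 0.05), and SYNPO, an actin-binding partner of BAG3 (-2.19 ± 0.19), were lower. Values in parentheses are log2 fold changes with SE.

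**Figure D4:**
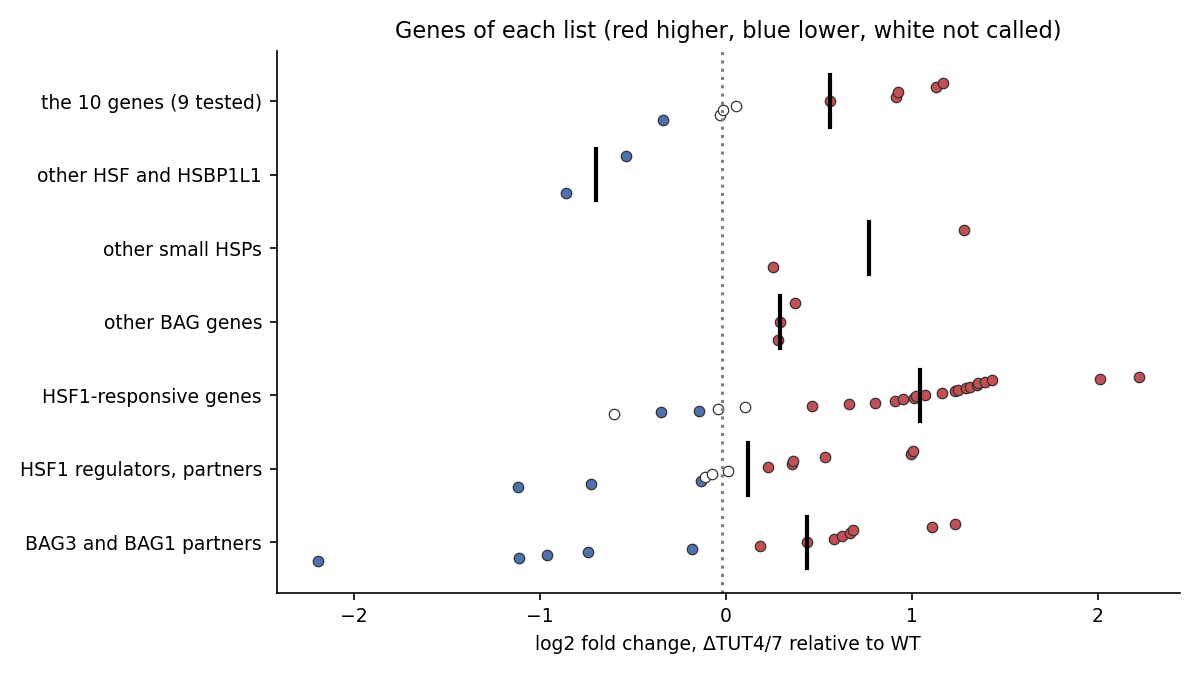
Log2 fold change (horizontal axis, libraries labelled ΔTUT4/7 relative to WT) of each tested gene in the lists named at the left, as red points where called higher, blue where called lower and white where not called, with each list's median as a black bar and the median of all tested genes (-0.02) as a dotted line. The medians are 0.56 for the 9 tested members and 1.05 for the HSF1-responsive genes, and the right-hand small HSP is HSPB6, which passed the count filter through 1 group only.

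Levels of different genes are set side by side here as CPM per kilobase of exon, whereas the count ratios above are not per length and serve only to compare libraries. Over the union of annotated exons, the WT levels were 22.5 ± 1.54 CPM per kilobase for HSF2, 9.10 ± 0.678 for BAG3, 8.84 ± 0.634 for HSBP1, 6.49 ± 0.564 for HSF1, 5.82 ± 0.251 for BAG2, 4.59 ± 0.686 for HSPB1, 3.17 ± 0.112 for BAG1 and 2.44 ± 0.334 for HSF4 (SD, n = 3). By this length BAG3 lay above HSBP1, and HSF1 above BAG2, in each of the 3 WT libraries, though the ranges of each pair overlapped. HSPB8, at 0.362 ± 0.0915, and CRYAB, at 0.0300 ± 0.0205, were the lowest. In the libraries labelled ΔTUT4/7, HSF2 (22.3 ± 1.73) was followed by BAG3 (17.2 ± 0.831), BAG2 (11.0 ± 0.548) and HSPB1 (10.4 ± 0.233). The order depends on the length: with the canonical transcript HSF1 stood at 16.1 in WT and at 23.8 in the libraries labelled ΔTUT4/7, beside 23.3 and 23.1 for HSF2. By that length HSPB1, at 21.7 in the libraries labelled ΔTUT4/7, lay above BAG3 at 18.4 and BAG2 at 11.0. The HSBP1 length comes from a GENCODE model that starts at 83719311, upstream of the interval in the count table.

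Other overlapping genes may bear on some counts, since no strand setting was given in the sources used here. Overlap was judged from the intervals of whole genes, and shared reads were not tested. DGAT1, a lipid synthesis gene opposite HSF1 with 137 shared bases, had a log2 fold change of 0.33 ± 0.11 and was called higher (adjusted p = 0.0112, edgeR) with overlapping groups. C11orf52, opposite CRYAB, held 10, 15 and 22 counts in WT and 0, 1 and 4 in the libraries labelled ΔTUT4/7, and its test is not given since it passed the count filter only through WT. AC233992.1 opposite HSF1, ZNF451-AS1 opposite BAG2, AC074143.1 on the strand of HSF4, and AC084880.1 over HSPB8 were not called. The intervals given for Metazoa_SRP and SNORA70 covered all 53301 bases of HSPB8, and these were not called either. Whether each of them is a single gene lying at HSPB8 was not tested.

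The genes whose pattern over the 6 libraries was most like that of the 3 members with the smallest adjusted p were found by Pearson's r of log2 CPM among 12447 protein-coding genes, as a description. For BAG1 they were THOC6, GLB1L2 and SCD, for BAG2 NOCT, ACAA1 and MSRB1, and for BAG3 EP400, SRCAP and NCOR1. With 2 groups this measure separates few genes: 3434 genes had an r above 0.95 with BAG1, 3336 with BAG2 and 3070 with BAG3.

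**Figure D5:**
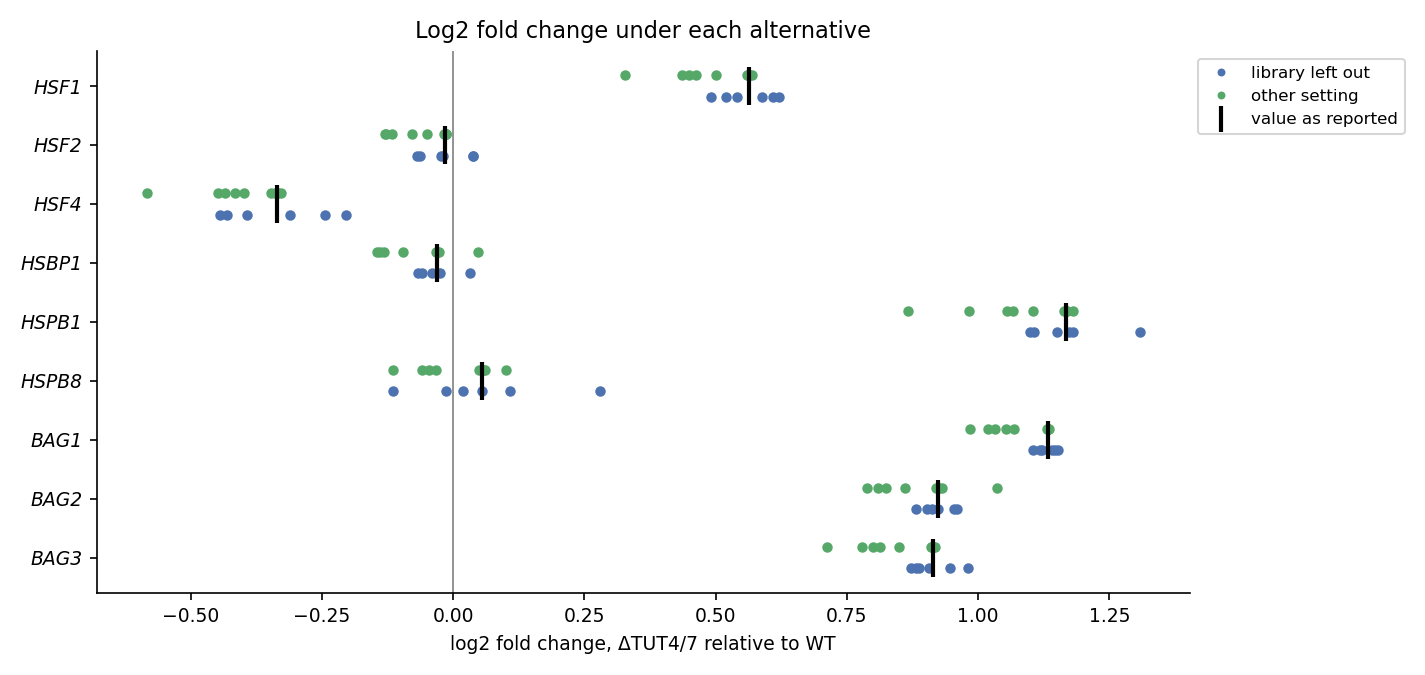
Log2 fold change of the 9 tested genes (horizontal axis, libraries labelled ΔTUT4/7 relative to WT) as reported (black bars), with 1 of the 6 libraries left out (blue) and under the other refitted settings (green), without the subtraction of neighbours. BAG1, BAG2, BAG3, HSPB1 and HSF1 lie above 0 and HSF4 below 0 in each plotted setting, with the lowest plotted HSF1 value at 0.33, while the points of HSF2, HSBP1 and HSPB8 fall on both sides of 0.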

How the data were processed

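The study's authors aligned reads to hg38 with STAR 2.7.3a and deposited estimated counts per gene from the expectation-maximisation model of Partek 10.0.22, which shares reads between similar or overlapping genes; between 45.2% and 50.0% of a library's values were not whole (tolerance 1e-09). The authors' own comparison table, with p-values, FDR, ratios, fold changes and least-squares means, was not used. Counts were rounded, and 23952 of 30270 genes with a largest count above 12 were tested; the 6318 others held 0.0962% of counts. TMM scaling and edgeR 4.0.16 (R 4.3.3; glmQLFit, robust; glmQLFTest, group only) were used and p-values were adjusted by Benjamini-Hochberg across the genes tested. The steps were tested on simulated data. Alternatives included DESeq2 1.42.0, limma 3.58.1, other scalings and filters, a replicate block, single libraries left out, and a GC and length offset from GENCODE release 44 (21465 genes matched). CPM is mean ± SD over 3 libraries; the replicates are 3 preparations of 1 line.

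The members and lists were chosen with earlier results of these data known. The text names all 10 members, TUT4 and TUT7, all small HSP, HSF and BAG genes listed, the 3 smallest p in each direction of longer lists, pseudogenes, overlapping genes and the 3 genes most like each of 3 members; HSPA1A, HSPA8 and DNAJB1 were named after their values were seen. Promoters are RefSeq's (GRCh38.p14). A planned comparison of protein sequences was not run. A gene counted in a list is not reported here by name.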

Additional observations from a re-analysis of the deposited data

How the results depend on the processing

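HSF1, HSPB1, BAG1, BAG2 and BAG3 kept their direction and call under the 17 alternatives that were refitted, with log2 fold changes from 0.33 to 0.62, 0.87 to 1.31, 0.99 to 1.15, 0.79 to 1.04 and 0.71 to 0.98. With the median of the neighbours within 5 Mb subtracted, which has no test, HSF1 was at 0.3094, HSPB1 at 1.168, BAG1 at 1.053, BAG2 at 0.8699, BAG3 at 0.6144, HSF4 at -0.5006, HSF2 at 0.2665, HSBP1 at 0.2783 and HSPB8 at -0.7399. The count of members called lower, 1 as reported, was 2 under library size alone, upper quartile scaling and limma on log2(CPM + 1), was 0 in DESeq2, limma-voom and without the count filter, and ranged from 0 to 1 with single libraries left out. The count called higher at 2-fold or more, 2 as reported, was 0 in limma on log2(CPM + 1), which uses a pseudocount and library sizes without TMM, and remained 2 with the GC and length offset, where BAG2 (1.04) took the place of HSPB1 (0.87).

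The sign of the same last 3 genes, not called as reported, also turned elsewhere. HSF2 was at 0.03795 without WT replicate 2 and 0.03835 without replicate 3 of the libraries labelled ΔTUT4/7. HSBP1 was at 0.03196 without WT replicate 3 and 0.04731 with the GC and length offset. HSPB8 was at -0.05949 under library size, -0.04579 under upper quartile scaling, -0.03321 in limma on log2(CPM + 1), -0.1139 with the GC and length offset, -0.1137 without WT replicate 3 and -0.01412 without replicate 1 of the libraries labelled ΔTUT4/7. With single libraries left out, HSF2 ran from -0.06848 to 0.03835, HSBP1 from -0.06653 to 0.03196 and HSPB8 from -0.1137 to 0.2796. The cause was not tested. Over all genes, library size alone gave 5548 higher and 8272 lower calls against 6855 and 6958.

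The replicate numbers did not pair the libraries: deviations of same-numbered libraries from their group means had r of 0.0519, -0.0115 and -0.0222. With the replicate block, 5 members were higher and 1 lower, as without it (all genes: 6832 and 6846 calls). In promoters, 0 of 8 genes held 3 exact units, 3 held 2 units and 1 held 3 units with 1 mismatch. Depth limited HSPB8 and CRYAB.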
